A study of Drosophila melanogaster with 4 samples.

Results

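Aminoacyl-tRNA synthetases join each amino acid to its transfer RNA and so supply the substrates of protein synthesis. In animal cells most amino acids are served by separate nuclear genes for the cytoplasm and for the mitochondrion, and the mitochondrial enzymes are imported to charge the tRNAs encoded by mitochondrial DNA. The enzymes fall into 2 structural classes, I and II, with unrelated catalytic folds. In flies, as in mammals, uncharged tRNA activates the kinase Gcn2, which raises translation of the transcription factor ATF4 (crc in flies), and synthetase genes are among the known targets of ATF4.

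The synthetase genes were taken by name. Every row of the deposited gene table whose RefSeq transcripts matched a Release 6 symbol made of 1 or 2 amino acid codes followed by RS, with or without the suffix -m, was included. This gave 33 of 16198 rows, 18 cytoplasmic and 15 mitochondrial, and all 33 such symbols of Release 6 had a row. The values come from polyadenylated RNA of whole 3rd instar Drosophila melanogaster larvae, collected 100 h after egg laying and reared at 25 °C on a cornmeal, sugar and yeast diet. There were 2 libraries labelled wildtype, with no strain or control allele given, and 2 from larvae labelled homozygous for the allele kr-h1[7] of Kr-h1, the gene of a juvenile hormone-inducible transcription factor with zinc fingers. The labels do not say how many larvae made up a library or if replicate libraries are separate collections, so the spread behind the authors' p-values may be technical. The authors deposited 1 FPKM value per gene and group (fragments scaled to transcript length and library size), so no value below has a replicate error, and neighbours in the order of levels cannot be told apart from its spread. Where 2 FPKM values are joined by "and" below, the first is that of the wildtype-labelled and the second that of the mutant-labelled group. A gene is called where the q-value of the authors' Cuffdiff test is at most 0.05.

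The group labels were checked on Kr-h1 itself, which stood at 2.98 and 9.79 FPKM, 3.28-fold higher under the mutant label (q = 0.000889, authors' deposited table). A mutant allele can still be transcribed, so this level does not settle the label, and groups are named here by label only. Markers of the tissues of a larva were present. Summed levels in the wildtype-labelled and mutant-labelled groups were 16058 and 13153 FPKM for 4 fat body genes, 3260 and 2643 FPKM for 4 muscle genes, and 54.8 and 37.4 FPKM for 3 haemocyte genes. The authors' deposited table called lower 4 of 4, 4 of 4 and 1 of 3 of these. The 8 fat body and muscle genes, and the 4 cuticle genes given next, all had a mean above 100 FPKM, where 49.3% of tested rows were called. Over all tested rows 13.0% were called, 4.32% higher and 8.73% lower, and each marker list is too small to read against these shares. Summed levels were 6309 and 4942 FPKM for 3 midgut genes (1 called higher, 2 lower), 524 and 448 FPKM for 3 salivary gland genes (0 called) and 41654 and 38700 FPKM for 4 cuticle genes (2 called lower). The 3 testis markers summed to 46.6 and 78.7 FPKM with 0 of 2 tested genes called, and the yolk protein genes Yp1, Yp2 and Yp3 to 84.2 and 69.8 FPKM with 1 called higher and 1 lower. No marker was at 0 in either group. Fewer cells of a type and less RNA per cell cannot be told apart in whole larvae, and the part of tissue make-up in the synthetase values was not tested.

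Synthetase transcripts were of middling abundance, and the mitochondrial genes were lower than the cytoplasmic ones. The cytoplasmic genes ranged from 8.17 to 72.5 FPKM in wildtype-labelled larvae, with a median of 18.7 FPKM, and from 6.62 to 62.2 FPKM in mutant-labelled larvae, with a median of 18.6 FPKM. The median over all 7058 tested rows was 11.0 and 11.1 FPKM. The mitochondrial genes reached from 0.231 FPKM for GluRS-m to 22.2 FPKM for PheRS-m in wildtype-labelled larvae, and the same genes bounded the range of 0.753 to 17.9 FPKM in mutant-labelled larvae. The ranges of the compartments overlapped in both groups. Of the 15 mitochondrial rows 14 had a mean of both groups below 10 FPKM, against 2 of 18 cytoplasmic rows, CysRS and ValRS. Summed over the 33 rows, synthetases held 0.0939% and 0.0887% of the FPKM totals, with 442 and 402 FPKM in the cytoplasmic set and 89.4 and 79.4 FPKM in the mitochondrial set.

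The most abundant members belonged mostly to class II. AspRS, the aspartyl-tRNA synthetase, led both groups with 72.5 and 62.2 FPKM, in a row that also covers an antisense RNA. SerRS followed with 45.3 and 41.6 FPKM, TyrRS, a class I enzyme, with 40.0 and 38.2 FPKM, and ThrRS with 38.3 and 36.0 FPKM. AsnRS (35.7 and 29.4 FPKM) and LysRS (29.5 and 27.6 FPKM) completed the first 6 places, which had the same order in both groups. The 8 cytoplasmic class II genes had a median of 32.6 FPKM in wildtype-labelled larvae, and the 9 cytoplasmic class I genes a median of 11.8 FPKM. GluProRS, a fused enzyme that charges both glutamate and proline and so spans both classes, had 14.4 and 14.5 FPKM. The rank correlation of levels between the groups was 0.94 over the 18 cytoplasmic and 0.76 over the 15 mitochondrial rows, a description over genes measured in the same libraries.

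**Figure D1:**
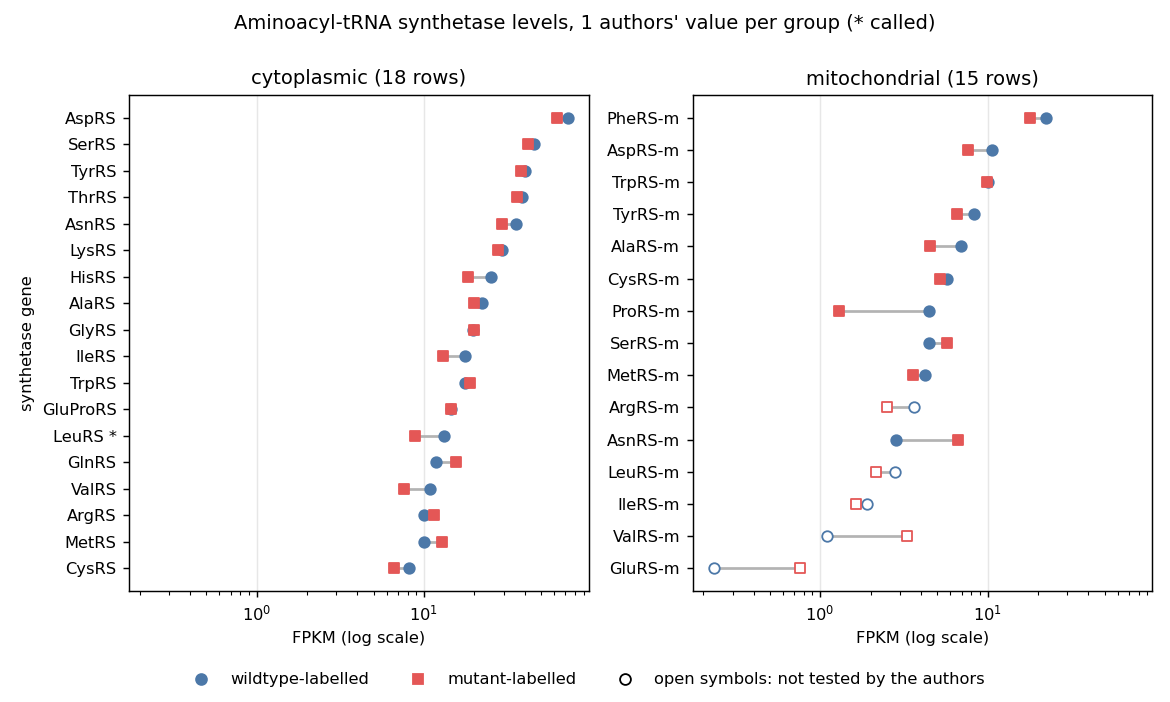
FPKM on a log scale for each synthetase gene, with cytoplasmic genes on the left and mitochondrial genes on the right, wildtype-labelled as circles and mutant-labelled as squares. Each symbol is 1 authors' value over 2 libraries, open symbols mark the 5 rows that the authors did not test, and the asterisk marks LeuRS, the called row. The mitochondrial genes lie to the left, and the widest gaps between the groups are those of ProRS-m, AsnRS-m, ValRS-m and GluRS-m.

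The comparison of the groups asked whether mutation of Kr-h1 goes with a change in synthetase transcripts. Of the 28 rows that the authors tested, 18 cytoplasmic and 10 mitochondrial, 1 was called lower and 0 were called higher in mutant-labelled larvae. That is 3.57% of the tested synthetase rows, while 13.0% of all tested rows were called in the authors' deposited table, 4.32% higher and 8.73% lower. The chains of cytoplasmic PheRS are outside the name rule and not in these counts, and of them alpha-PheRS was called lower and beta-PheRS was not called. Calls depended on abundance. Among tested rows with a mean of 10 to 100 FPKM, 14.4% were called, against 1 of 17 synthetase rows (5.88%), and below 10 FPKM 4.44% were called, against 0 of 11. At an unadjusted p under 0.05 in the authors' deposited table, 8 of 28 synthetase rows (28.6%) passed, close to the 25.8% of all tested rows. Of the 8, 7 were lower and 1 was higher, where 15.9% and 9.92% of all tested rows were.

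LeuRS, the leucyl-tRNA synthetase, was the called row. It stood at 13.1 and 8.80 FPKM, a 1.49-fold decrease with q = 0.0301 in the authors' deposited table. Its row covers no other gene and spans positions 3510328 to 3514656 of chromosome arm 2L, in the coordinates of the deposited table. LeuRS took the 14th place in the wildtype-labelled and the 18th in the mutant-labelled group among the 33 rows.

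The other enzymes for branched-chain amino acids had the next lowest log2 ratios among cytoplasmic rows but for HisRS, and were not called. Ratios here are log2 of mutant-labelled over wildtype-labelled FPKM, each with 1 added. ValRS, the valyl-tRNA synthetase, had 10.9 and 7.59 FPKM (q = 0.0681, authors' deposited table). IleRS, the isoleucyl-tRNA synthetase, had 17.6 and 12.9 FPKM (q = 0.0705, authors' deposited table). LeuRS, ValRS and IleRS are closely related class I enzymes that also edit mischarged tRNA. Grouped after their values were seen, the 3 had log2 ratios of -0.53, -0.47 and -0.42 and summed to 41.7 and 29.3 FPKM. The other 15 cytoplasmic rows had a median log2 ratio of -0.09. HisRS, in a row with the transcription factor gene Bx, had 25.0 and 18.3 FPKM (q = 0.0757, authors' deposited table), and its value cannot be separated from that of Bx.

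Other cytoplasmic rows differed less between the groups. AspRS and AsnRS were 1.17-fold and 1.21-fold lower in mutant-labelled larvae, and CysRS, the least abundant cytoplasmic gene, had 8.17 and 6.62 FPKM. None of these was called. AlaRS (22.2 and 19.8 FPKM), SerRS, TyrRS, ThrRS and LysRS lay within 1.12-fold of equality. GlyRS, which in flies makes both the cytoplasmic and the mitochondrial enzyme, had 19.7 and 20.0 FPKM. ThrRS, LysRS and HisRS had no gene with the suffix -m either. Nor had GlnRS, but mitochondrial glutaminyl-tRNA is made by an amidotransferase. Cytoplasmic here thus means a name without the suffix, and may include other genes that serve both compartments.

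A few cytoplasmic genes had the higher value in mutant-labelled larvae, again without a call. GlnRS had 11.8 and 15.5 FPKM (q = 0.177, authors' deposited table), in a bundle shared with CG11858, which had 21.7 and 32.3 FPKM and was not called either. MetRS had 10.1 and 12.8 FPKM (q = 0.235, authors' deposited table), ArgRS 10.1 and 11.5 FPKM, and TrpRS 17.6 and 18.9 FPKM. GlyRS, a class II gene, and GluProRS, which spans both classes, made up the 6 cytoplasmic rows with the higher value. In class I 5 of 9 and in class II 7 of 8 cytoplasmic genes had the lower value in mutant-labelled larvae.

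Seen as a set, 12 of 18 cytoplasmic rows and 8 of 10 tested mitochondrial rows had the lower FPKM in mutant-labelled larvae, with 53.5% of all tested rows on that side. The median log2 ratio was -0.11 for cytoplasmic, -0.24 for mitochondrial and -0.03 for all tested rows. No cytoplasmic row under the name rule reached a 1.5-fold difference, the widest being the 1.49-fold decrease of LeuRS, while 19.3% of tested rows at 10 to 100 FPKM did. Outside that rule, the cytoplasmic chain genes alpha-PheRS and beta-PheRS were 1.56-fold and 1.18-fold lower. The difference between the medians of the compartments was -0.14 on the log2 scale (mitochondrial minus cytoplasmic), and with 1 value per group it could not be tested. It was -0.08 with the untested rows included. It was -0.07 over rows with coordinates of their own, with 2 mitochondrial rows left. Over rows of at least 10 FPKM it was -0.21, with 1 mitochondrial row left.

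**Figure D2:**
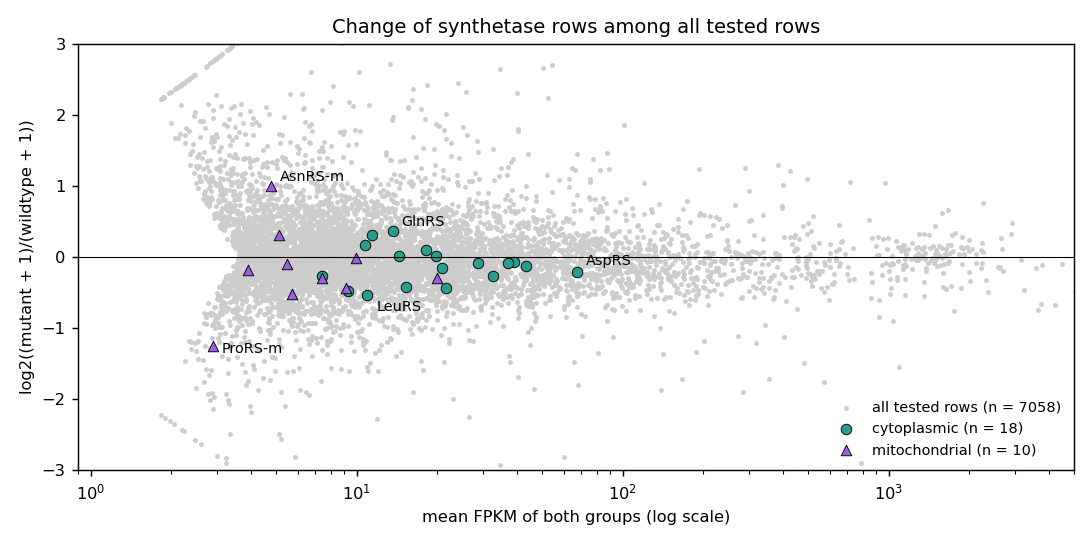
Log2 ratio of mutant-labelled over wildtype-labelled FPKM, each with 1 added, against the mean FPKM of both groups on a log scale, for 7058 tested rows in grey, 18 cytoplasmic synthetases as circles and 10 tested mitochondrial synthetases as triangles. Cytoplasmic rows lie between -0.53 and 0.36, and ProRS-m and AsnRS-m, both below 10 FPKM, lie outside that band. The axes leave out 65 of the grey points.

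The mitochondrial genes spread more widely at lower levels, and 0 of 10 tested rows were called (2 of 10 at an unadjusted p under 0.05 in the authors' deposited Cuffdiff table). All of these but PheRS-m had a mean below 10 FPKM. Of all tested rows at that level 4.44% were called and 15.6% passed unadjusted, so counts this small do not set the mitochondrial genes apart. ProRS-m, the mitochondrial prolyl-tRNA synthetase, had 4.47 and 1.29 FPKM, a 3.46-fold gap (q = 0.303, authors' deposited table). AsnRS-m went the other way, with 2.84 and 6.69 FPKM, 2.35-fold apart (q = 0.393, authors' deposited table). AlaRS-m had 6.90 and 4.50 FPKM (1.53-fold, with q = 0.18 in the authors' deposited table). These 3 of 10 rows were past 1.5-fold, where 36.9% of all tested rows below 10 FPKM were. At that abundance only 11.0% of the rows past 1.5-fold were called in the authors' deposited table, against 41.7% at 10 to 100 FPKM. Without a value per library, whether gaps of this size could be detected here was not tested.

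The other tested mitochondrial genes lay closer together. PheRS-m, a single-chain enzyme unlike its cytoplasmic counterpart, had 22.2 and 17.9 FPKM. AspRS-m had 10.6 and 7.61 FPKM (q = 0.109, authors' deposited table), and TrpRS-m 10.0 and 9.89 FPKM. TyrRS-m (8.28 and 6.53 FPKM), CysRS-m (5.70 and 5.24 FPKM) and MetRS-m (4.22 and 3.59 FPKM) were also lower in mutant-labelled larvae, and SerRS-m (4.44 and 5.75 FPKM) was higher, all uncalled. The 5 rows that the authors did not test were ArgRS-m (3.63 and 2.53 FPKM), LeuRS-m (2.81 and 2.15 FPKM), IleRS-m (1.91 and 1.65 FPKM), ValRS-m (1.10 and 3.32 FPKM) and GluRS-m (0.231 and 0.753 FPKM). The mitochondrial counterparts of LeuRS, IleRS and ValRS are thus all untested, and whether they moved with the cytoplasmic genes was not tested.

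For 12 amino acids a cytoplasmic and a mitochondrial gene could be set side by side by name, 1 to 1. GluProRS, which serves glutamate and proline, and the chains of cytoplasmic PheRS were left out of these pairs. GluProRS was above both GluRS-m and ProRS-m in both groups. For phenylalanine the levels were close. PheRS-m had 22.2 and 17.9 FPKM, alpha-PheRS 28.5 and 18.3 FPKM and beta-PheRS 22.0 and 18.6 FPKM, so PheRS-m was not below both chains in wildtype-labelled larvae. The cytoplasmic gene had the higher FPKM in 12 of 12 pairs in both groups, by a median of 4.76-fold in wildtype-labelled and 4.40-fold in mutant-labelled larvae. The gap in wildtype-labelled larvae was widest for asparagine, at 12.5-fold, and for serine, at 10.2-fold. It was narrowest for cysteine, at 1.43-fold, and tryptophan, at 1.75-fold. In mutant-labelled larvae the asparagine pair stood at 4.40-fold, since AsnRS was lower and AsnRS-m higher there, and the cysteine pair at 1.26-fold. The aspartate pair was the widest there, at 8.18-fold. Of the 8 pairs with both rows tested, the mitochondrial gene had the lower log2 ratio in 5 and the higher in 3. Both genes of the pair had the lower FPKM in mutant-labelled larvae in 4 of these 8, those of aspartate, tyrosine, alanine and cysteine.

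**Figure D3:**
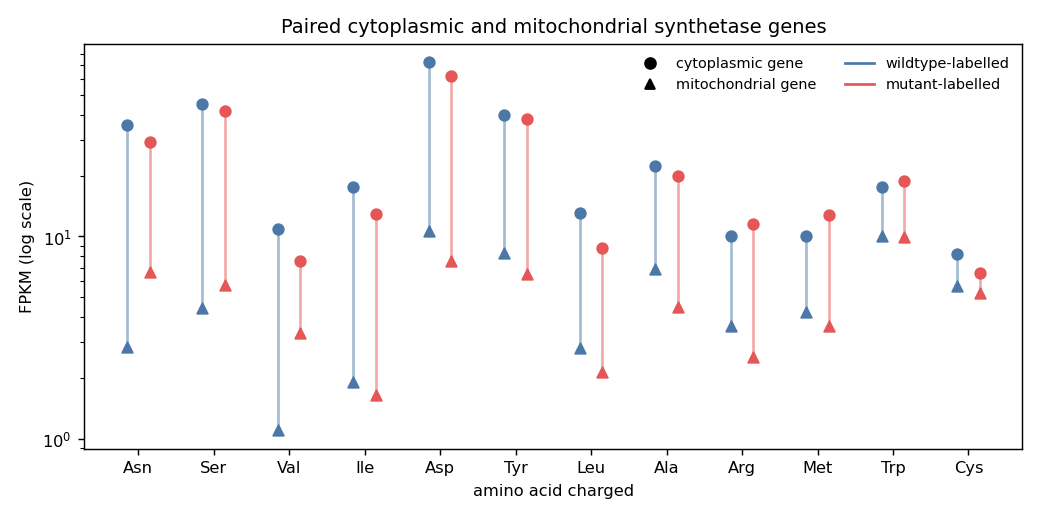
FPKM on a log scale for the 12 amino acids with a cytoplasmic gene (circles) and a mitochondrial gene (triangles), wildtype-labelled in blue and mutant-labelled in red, ordered by the cytoplasmic to mitochondrial fold in wildtype-labelled larvae. The circle is above the triangle in all 12 pairs and both groups, with the narrowest span for cysteine in both groups and the widest for asparagine in the wildtype-labelled and for aspartate in the mutant-labelled group.

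Some subunits fell outside the naming rule. Cytoplasmic phenylalanyl-tRNA synthetase is built from alpha and beta chains. The alpha-PheRS gene fell 1.56-fold, from 28.5 to 18.3 FPKM (q = 0.00895, authors' deposited table), whereas beta-PheRS had 22.0 and 18.6 FPKM, uncalled (q = 0.429, authors' deposited table). The difference between the chains was not tested. Slimp, a mitochondrial protein related to seryl-tRNA synthetase, had 3.05 and 4.52 FPKM and was not called.

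In mammals 8 cytoplasmic enzymes, here AspRS, LysRS, IleRS, LeuRS, MetRS, GlnRS, ArgRS and GluProRS, assemble with 3 scaffold proteins into a multisynthetase complex. The scaffold genes were close to equal in the groups, with AIMP1 at 26.1 and 25.5 FPKM, AIMP2 at 24.8 and 26.5 FPKM and AIMP3 at 16.6 and 17.2 FPKM, and the authors' deposited Cuffdiff table called 0 of 3 (0 also at an unadjusted p under 0.05), where 13.0% of all tested rows were called and 25.8% passed unadjusted, a list too small to read against those shares. The 8 genes for the enzymes of the complex divided evenly, with 4 at the lower and 4 at the higher FPKM in mutant-labelled larvae and a median log2 ratio of -0.04.

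Genes that act before and after tRNA charging were followed as further lists. Among 3 tested genes of tRNA end processing, scu, a subunit of mitochondrial RNase P that is also a mitochondrial dehydrogenase, fell 1.54-fold from 208 to 135 FPKM (q = 0.000889, authors' deposited table). The RNA-binding protein gene La had 25.8 and 32.8 FPKM and was not called. The factors that deliver charged tRNA to the ribosome were followed in 5 genes, of which 1 was called. This was eEF1alpha1, at 3904 and 3626 FPKM, 1.08-fold lower in mutant-labelled larvae (q = 0.000889, authors' deposited table). It does not have coordinates of its own. The eEF1alpha2 gene was 1.46-fold higher, at 5.39 and 7.84 FPKM, and uncalled (q = 0.218, authors' deposited table). The means of scu and eEF1alpha1 lay above 100 FPKM, where 49.3% of tested rows were called. Their q-value is the smallest that the authors gave. With 1 of 3 and 1 of 5 genes called, these lists are too small to read against that share. The mitochondrial factor genes mEFTu1 (45.0 and 43.2 FPKM), mEFTu2 (14.2 and 17.3 FPKM) and mEFTs (16.8 and 14.4 FPKM) were not called. GatA, of the amidotransferase that makes mitochondrial glutaminyl-tRNA, had 4.11 and 1.63 FPKM uncalled (q = 0.392, authors' deposited table), and GatB was not tested by the authors.

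In the list of uncharged tRNA sensing and ATF4 targets, 2 of 12 tested genes (16.7%) were called lower and 0 higher. Of all tested rows 13.0% were called, 8.73% lower. At an unadjusted p under 0.05 in the authors' deposited Cuffdiff table, 6 of the 12 (50%) passed, all lower. Of all tested rows 25.8% passed, 15.9% lower. The asparagine synthetase gene AsnS fell 1.65-fold, from 40.2 to 24.4 FPKM (q = 0.00163, authors' deposited table). Shmt, the serine hydroxymethyltransferase gene, fell 1.32-fold, from 69.7 to 53.0 FPKM (q = 0.014, authors' deposited table). The gene of ATF4 itself, crc, had 199.7 and 181 FPKM (q = 0.14, authors' deposited table). Gcn2 had 3.93 and 2.99 FPKM, and PEK, the other kinase of the pathway, 8.64 and 10.2 FPKM, neither called. Of the 12 genes, 8 had the lower and 4 the higher FPKM in mutant-labelled larvae, with a median log2 ratio of -0.19. The 4 were PEK, eIF2alpha (59.2 and 69.1 FPKM), PPP1R15 (19.1 and 23.9 FPKM) and Thor (67.1 and 73.4 FPKM), all uncalled. AsnS and Shmt share their coordinates with other rows.

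**Figure D4:**
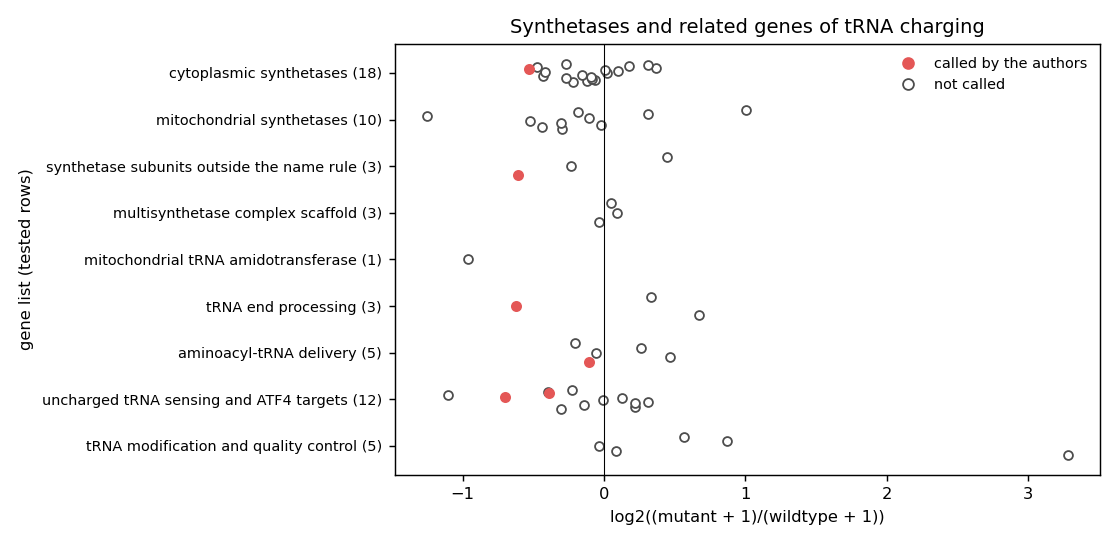
Log2 ratio of mutant-labelled over wildtype-labelled FPKM, each with 1 added, for the tested rows of both synthetase sets and of 7 related gene lists, with called rows filled and uncalled rows open. LeuRS, alpha-PheRS, scu, eEF1alpha1, AsnS and Shmt are the filled points, all to the left of 0, and open points lie on both sides. Over all tested rows 13.0% were called, 8.73% lower and 4.32% higher.

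The synthetase genes lie on all the large chromosome arms, with 10 on 3L, 8 on 2R, 6 each on 2L and 3R, and 3 on X, where all 3 are cytoplasmic. The coordinates of 17 of the 33 rows, 14 of them tested, were shared with another row as 1 bundle, and how fragments were divided between the genes of a bundle is not known. These were 6 cytoplasmic rows (AspRS, SerRS, HisRS, GluProRS, GlnRS and CysRS) and 11 mitochondrial rows (all but PheRS-m, TrpRS-m, LeuRS-m and ValRS-m). ArgRS-m shares a bundle with the mitochondrial ribosomal protein gene mRpS9, which rose 1.56-fold from 25.5 to 39.9 FPKM (q = 0.0135, authors' deposited table). It was the only called row among those that share a bundle with a synthetase, and 13.0% of all tested rows were called. The exonic lengths of the tested synthetase genes ran from 1482 to 5453 nucleotides, with a median of 2466 nucleotides against 1868 nucleotides over 7044 tested rows with a length. The rank correlation of exonic length with the log2 ratio was -0.19 over the 28 tested synthetase rows and -0.13 over the 7044 rows, as a description.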

How the data were processed

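The labels' protocols describe polyadenylated RNA and paired-end Illumina MiSeq libraries, and TopHat2, Cufflinks and Cuffdiff are listed in the submitters' processing notes. No version, setting, genome build or strand mode is given in the sources used here. The FPKM values were made by the authors with Cuffdiff, 1 per group over 2 libraries. The authors' deposited log2 fold change matched the 2 FPKM values, and the deposited p-value and q-value of Cuffdiff matched a Benjamini-Hochberg adjustment over 7058 tested rows. The deposited test statistic, a score, was not used. Per the file's status column, 9135 rows went untested and 5 were excluded as too deep. Depth is unknown, since no counts were given and 23 values above 0 lay under 0.001 FPKM, so the values were estimates and not whole reads. Any spread behind the p-values is that between the libraries of a group, and it may be technical.

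From these values, folds, log2((mutant-labelled + 1)/(wildtype-labelled + 1)), medians and counts were computed. Known calls and folds planted in a copy of the deposited rows were returned. The planted higher values were set to fit the pseudocount, so this checked the arithmetic only. A pseudocount of 1 understates the change of low genes. Of 30529 transcript accessions 30273 matched a Release 6 symbol. Coordinates are those of the deposited table with a 1-based start, and exonic lengths are unions of exons in Ensembl release 115. The members, the lists and the markers were chosen with earlier results of these data known, and the current symbols aay and trbl were put in for list members after the table had been seen. All members were open to naming, and from the other lists the called genes or those of highest level. Slimp, Gcn2, PEK, eIF2alpha, PPP1R15, Thor, eEF1alpha2, GatB, La, Nsun2 and Dtd were named after their values were seen. So were the bundle neighbours mRpS9, CG11858 and Serinc. Alternatives changed the pseudocount, the q threshold, the minimum FPKM, the centring and the rows kept. The tools were pandas 2.3.3, numpy 2.4.6 and scipy 1.17.1 under Python 3.11.15, with matplotlib 3.10.9 for plots.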

Additional observations from a re-analysis of the deposited data

How the results depend on the processing

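The number of synthetase rows called lower depended on the q threshold. It was 0 at a q-value of at most 0.01 and 4 at at most 0.1 (14.3% of 28, with 18.1% of all tested rows called), and the same 0 and 4 were the counts of cytoplasmic rows called. The 4 were LeuRS, ValRS, IleRS and HisRS. Counts of higher and of mitochondrial rows were 0 under every threshold and filter tried. The medians kept their sign under each pseudocount, filter, centring and choice of rows, and moved by less than 0.1 on the log2 scale, the tolerance used in place of a replicate spread. The cytoplasmic median ran from -0.11 to -0.07 and the mitochondrial one from -0.30 to -0.16, where a minimum of 10 FPKM left 1 mitochondrial row and the limit to rows with coordinates of their own left 2. No paired analysis was possible because the deposited columns hold 1 value per group, and no library could be left out for the same reason.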

Other observations

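Genes of tRNA modification and quality control were not described above. The authors' deposited Cuffdiff table called 0 of 5 tested genes (1 at an unadjusted p under 0.05), where 13.0% of all tested rows were called and 25.8% passed unadjusted. All 5 had a mean below 10 FPKM, where 4.44% of tested rows were called and 15.6% passed unadjusted. The list is too small to read against these shares. Of the 5, 4 had the higher FPKM under the mutant label, and the median log2 ratio was 0.57. Values are again those of the wildtype label first. Trm7-32, a tRNA methyltransferase, had 6.98 and 10.8 FPKM. Nsun2, a cytosine methyltransferase of tRNA, had 5.52 and 5.37 FPKM. Dtd, which removes D-amino acids from mischarged tRNA, was listed at 0 under the wildtype label and stood at 8.74 FPKM under the mutant label (q = 0.134, authors' deposited table). Its exonic length is 528 nucleotides, and it shares its coordinates with another row.

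TyrRS, among the most abundant synthetase genes, and GluRS-m, the least abundant, have rows that lie close together on arm 3L. In the deposited coordinates the row of GluRS-m spans 16412722 to 16417177 and that of TyrRS 16417349 to 16419302. The first span is that of a bundle shared with the gene Serinc. The 171 bases between the rows are counted from the end of this bundle, so the distance from GluRS-m itself to TyrRS was not determined. GluRS-m and TyrRS are both on the minus strand in the annotation.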
